A study of Rattus norvegicus with 6 samples.

Results

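Autosomal recessive primary microcephaly is an inherited condition in which the brain, and the cerebral cortex most of all, is small at birth while its layered plan is largely kept. The mRNA levels of the genes best known for it were examined in cultured cortical neural progenitors of the rat. The genes were given by name, as *Aspm*, *Mcph1*, *Cdk5rap2*, *Wdr62*, *Cenpj*, *Stil*, *Cep152*, *Cep135*, *Cit* and *Knl1*. Of these 10 genes, 6 were analysed among 17337 distinct gene names. *Aspm*, *Cdk5rap2*, *Wdr62*, *Cenpj* and *Cit* were matched by their symbols, and *Knl1* was read under its older symbol *Casc5*, a synonym in the RefSeq gene table. *Mcph1*, *Stil*, *Cep152* and *Cep135* were not analysed here.

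All samples belonged to 1 condition, and the labels name a strain but no genotype or treatment. Cortices of Sprague Dawley rats of either sex were taken at embryonic day 14, and the dissociated cells were grown with bFGF and EGF, each at 20 ng/ml, and collected after the second passage. PolyA-selected RNA of 2 biological replicates, A and B, was sequenced as 2 technical libraries each (A1 and A2, B1 and B2), while the 2 Start-seq samples of the series, which profile short capped RNA at transcription start sites, were not analysed here. The labels give only the replicate letter and library number, the numbered libraries were taken as technical, and the animals, litters or cultures behind each replicate are not given. mRNA level is in FPKM, fragment number corrected for the size of the transcript and of the library, and each mean ± SD is over A and B (n = 2) after averaging the technical libraries. With 1 condition and n = 2 no test between groups was possible, so the values below are descriptive.

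The markers agree in part with the label. All 8 neural progenitor markers were above 10 FPKM, from 33.9 for *Pax6* to 11840 for *Fabp7*, which encodes a fatty acid binding protein of radial glia. All 8 mesenchymal and meningeal markers were above 10 FPKM too, with a summed level of 641 to 660 FPKM in the libraries of A and 2482 to 2995 FPKM in those of B. Their means ran from 27.3 FPKM for *Pdgfrb* to 486 FPKM for *Col3a1*. The 7 neuron markers had a median of 6.92 FPKM, from 0.423 for *Neurod6* to 118 for *Tubb3*, and 2 of them reached 10 FPKM. The 5 microglia and 5 endothelial markers were each below a mean of 1 FPKM, with *Aif1* (0.719) and *Cdh5* (0.381) the highest. In such bulk samples, fewer cells of a type and less RNA per cell cannot be told apart. Library B2 was shallower than the others, with 6.83 units of coverage (mean read depth over a gene's transcripts) per FPKM against 22.7 to 24.4. Even there the coverage of the microcephaly genes was 12.1 for *Knl1* to 71.4 for *Cdk5rap2*, compared with 28.7 to 345 in the deeper libraries.

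The products of these genes act on the machinery of cell division. A progenitor of the ventricular zone divides with its centrosomes and spindle set relative to the apical surface, and errors in centriole duplication, spindle poles, chromosome attachment or cell separation deplete the progenitor pool or delay mitosis. Centrioles are copied once in each cell cycle and recruit a pericentriolar matrix that nucleates microtubules. Spindle pole proteins then focus microtubule minus ends, kinetochores attach chromosomes to the spindle, and the midbody completes cytokinesis.

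Promoter letters are shown first because many genes of mitosis share 2 short elements near their starts, the CCAAT box, which binds the factor NF-Y, and the cell cycle genes homology region (CHR), searched here as TTTGAA. Both motifs were searched on both strands in the 250 bases upstream of the RefSeq start (GRCr8 assembly), and overlapping matches were counted separately. All 6 genes were matched to a RefSeq start, and the 250 bases upstream of it are called the promoter here. For *Cit*, *Cenpj* and *Knl1* these bases lay inside the annotated gene, and whether they act as a promoter was not tested. Among 33469 rat promoters of this length, 34% held at least 1 CCAAT and 16.2% held at least 1 TTTGAA. *Aspm* and *Wdr62* each held 4 matches to CCAAT, a number reached by 0.565% of promoters. *Aspm* held TTTGAA as well at -16 to -11, counted from the start. *Cdk5rap2* held neither motif. These 3 promoters were picked after the counts were seen, as the 2 with the most matches and that of the most abundant gene, and capitals mark CCAAT, its reverse complement ATTGG, and TTTGAA.
Aspm promoter, chr13:53625334-53625583, plus strand: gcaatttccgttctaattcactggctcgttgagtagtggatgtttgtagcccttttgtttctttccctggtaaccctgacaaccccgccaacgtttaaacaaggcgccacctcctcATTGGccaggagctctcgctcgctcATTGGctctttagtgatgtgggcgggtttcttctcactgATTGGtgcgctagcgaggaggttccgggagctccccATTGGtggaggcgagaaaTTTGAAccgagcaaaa
Wdr62 promoter, chr1:94658022-94658271, minus strand: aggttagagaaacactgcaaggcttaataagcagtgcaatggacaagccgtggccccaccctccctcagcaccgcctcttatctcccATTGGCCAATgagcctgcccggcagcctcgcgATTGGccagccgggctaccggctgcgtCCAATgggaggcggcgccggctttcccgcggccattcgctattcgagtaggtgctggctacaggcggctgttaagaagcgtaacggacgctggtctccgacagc
Cdk5rap2 promoter, chr5:88975898-88976147, minus strand: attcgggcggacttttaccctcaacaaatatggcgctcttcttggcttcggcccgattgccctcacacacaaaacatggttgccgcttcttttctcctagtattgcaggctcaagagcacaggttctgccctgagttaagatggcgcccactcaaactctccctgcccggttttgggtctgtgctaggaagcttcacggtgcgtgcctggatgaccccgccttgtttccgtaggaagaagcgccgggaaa
In *Aspm* the CCAAT matches all lay on the strand opposite to the gene, the farthest at -134 to -130 and the nearest at -34 to -30. In *Wdr62* they lay between -163 and -100, and the pair farthest upstream abutted without overlap. *Cenpj* held 1 CCAAT from -36, and *Cit* and *Knl1* held 1 TTTGAA each, from -96 and -7. The starts used for *Cit*, *Cenpj* and *Knl1* lay 986, 3599 and 7468 bases from the outer end of the gene in the same assembly, compared with 0 to 108 bases for the 3 genes printed, so for those genes the letters upstream of any start nearer that end were not read. GC content ran from 28.4% in *Knl1* to 62% in *Wdr62*. A match of letters is a description and not a site of binding.

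Within the centrosome, *Cdk5rap2* encodes a scaffold of the pericentriolar matrix that recruits the gamma-tubulin ring complex. It was the most abundant of the 6 transcripts. Its level was 11.3 FPKM in A1 and 10.7 in A2, against 14.2 in B1 and 10.4 in B2, or 11.6 ± 0.930 FPKM (SD, n = 2). The high library was B1, 1.35 times B2, and the ranges of A and B overlapped. The gene spans 167 kb in rn6 (chromosome 5, 86387240 to 86554102, minus strand), and ranked 6225 of 17337 names by mean FPKM.

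*Cenpj* encodes CPAP, a tubulin-binding protein that sets centriole length and is needed for centriole duplication. Its level was 9.16 FPKM in A1 and 8.39 in A2, against 6.67 in B1 and 6.83 in B2, or 7.76 ± 1.43 FPKM (SD, n = 2). Both libraries of A were above both of B, and the technical libraries of each replicate lay within 1.03-fold in B and at a ratio of A2 to A1 of 0.917. Its rn6 position is chromosome 15, 36745672 to 36805608, minus strand.

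Of the spindle pole proteins, *Aspm* encodes a microtubule minus-end protein of the spindle poles and is the gene most often mutated in primary microcephaly. Its level was 5.32 FPKM in A1 and 5.48 in A2, against 3.26 in B1 and 4.78 in B2, or 4.71 ± 0.981 FPKM (SD, n = 2). The low library was B1, and again both libraries of A were above both of B. Its rn6 position is chromosome 13, 56546021 to 56591793, plus strand.

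*Wdr62*, a scaffold of the JNK pathway that also localises to spindle poles in mitosis, was lower. Its level was 2.20 FPKM in A1 and 1.79 in A2, against 1.53 in B1 and 3.26 in B2, or 2.20 ± 0.280 FPKM (SD, n = 2). B2 was the highest library and B1 the lowest, so the technical libraries of B enclosed both of A. Its rn6 position is chromosome 1, 88694828 to 88734223, minus strand.

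At the kinetochore, *Knl1* encodes the large scaffold that, with the Mis12 and Ndc80 complexes, holds microtubules and recruits the checkpoint kinase Bub1. It was the least abundant of the 6. The row named *Casc5* read 1.23 FPKM in A1 and 1.31 in A2, against 1.18 in B1 and 1.77 in B2, or 1.37 ± 0.144 FPKM (SD, n = 2). B2 was again the high library, and A and B overlapped. Its rn6 position is chromosome 3, 110855000 to 110909807, plus strand.

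For cytokinesis, *Cit* encodes citron kinase, which organises the midbody. The locus also gives rise to a shorter citron isoform without the kinase domain that is known from neurons, and the single row of the gene does not separate them. Its level was 3.09 FPKM in A1 and 1.92 in A2, against 2.79 in B1 and 6.01 in B2, or 3.45 ± 1.34 FPKM (SD, n = 2). This was the widest relative spread of the 6 genes, with a coefficient of variation over the 4 libraries of 51.5% against 14.7% to 34.7% for the others. *Cit* spans 158 kb in rn6 (chromosome 12, 46335160 to 46493203, minus strand). No other listed gene overlapped any of the 6.

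**Figure D1:**
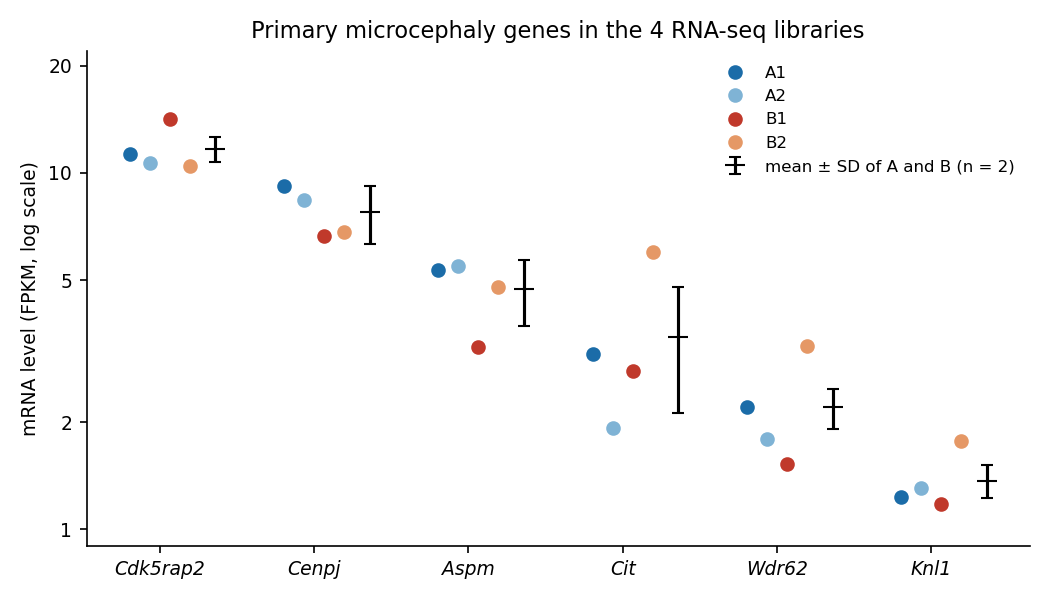
mRNA level in FPKM (log scale) of the 6 primary microcephaly genes in libraries A1, A2, B1 and B2, with the mean and SD over replicates A and B (n = 2) as a bar. The genes run from 11.6 FPKM for *Cdk5rap2* to 1.37 FPKM for *Knl1*, and B2 is the highest library for *Cit*, *Wdr62* and *Knl1*.

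By mean level, which FPKM scales for transcript length, the order was therefore *Cdk5rap2*, *Cenpj*, *Aspm*, *Cit*, *Wdr62* and *Knl1*, an 8.50-fold span. *Cdk5rap2* exceeded *Cenpj* by 3.88 FPKM, more than the sum of their SDs (2.36 FPKM), and in all 4 libraries. *Cenpj* exceeded *Aspm* by 3.05 FPKM against a sum of SDs of 2.41 FPKM, also in all 4 libraries. The upper part of the order thus exceeded the spread between replicates. *Aspm* and *Cit* were not apart. The mean of *Aspm* was above that of *Cit* by 1.26 FPKM, less than the sum of their SDs (2.32 FPKM), and the order was reversed in B2. *Cit* was above *Wdr62* in all 4 libraries, although the difference of 1.26 FPKM was also within the sum of their SDs (1.62 FPKM). *Wdr62* exceeded *Knl1* by 0.827 FPKM against a sum of SDs of 0.423 FPKM, in all 4 libraries.

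All 6 transcripts averaged at least 1 FPKM, and *Cdk5rap2* alone reached 10 FPKM. Their median was 4.08 FPKM, beside 3.83 FPKM over all 17337 names and 16.6 FPKM over the 10481 names averaging at least 1 FPKM. As percentiles of all names by mean FPKM, the genes lay at 64.1 for *Cdk5rap2*, 58.2 for *Cenpj*, 52.4 for *Aspm*, 49.0 for *Cit*, 45.1 for *Wdr62* and 41.7 for *Knl1*. Among the names averaging at least 1 FPKM the same genes lay between percentiles 3.61 and 40.6. These are long genes, and spans from 39.4 to 167 kb put them at percentiles 73.1 to 93.6 of all names by span. Among the 4661 names with a span of at least 39.4 kb, the median level was 4.43 FPKM and the genes lay at percentiles 34.9 to 67.8.

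Lists of genes with related roles gave the levels around them. The list of later microcephaly (MCPH) genes had 14 of 20 analysed, with a median of 14.9 FPKM and a range from 0.777 FPKM for *Sass6*, the hub of the centriole cartwheel, to 46.9 FPKM for *Phc1*, a Polycomb subunit. All 6 primary genes lay below that median. Of the centriole and pericentriolar partners, 19 of 24 were analysed, and 8 of these were at 10 FPKM or more. Their median was 7.44 FPKM and the highest was *Cetn3*, a centrin, at 64.4 FPKM. *Cdk5rap2* and *Cenpj* were thus above the median of this list by mean level.

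Of the spindle pole and cytokinesis partners 18 of 20 were analysed and 11 reached 10 FPKM, with a median of 14.7 FPKM. *Ect2*, the exchange factor that starts furrow ingression, was the lowest at 3.26 FPKM, above *Wdr62* and below *Cit* and *Aspm*. Of the outer kinetochore and checkpoint genes 13 of 14 were analysed, with a median of 7.89 FPKM. They ran from 3.03 FPKM for *Nsl1*, a Mis12 complex subunit, to 239 FPKM for *Zwint*, whose protein binds Knl1. *Knl1* was below every analysed gene of this list. Of the condensin and Mcph1 partners 8 of 12 were analysed, from 1.82 FPKM for *Brca2*, a recombination gene, to 32.9 FPKM for *Set*, a histone chaperone, with a median of 12.1 FPKM.

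**Figure D2:**
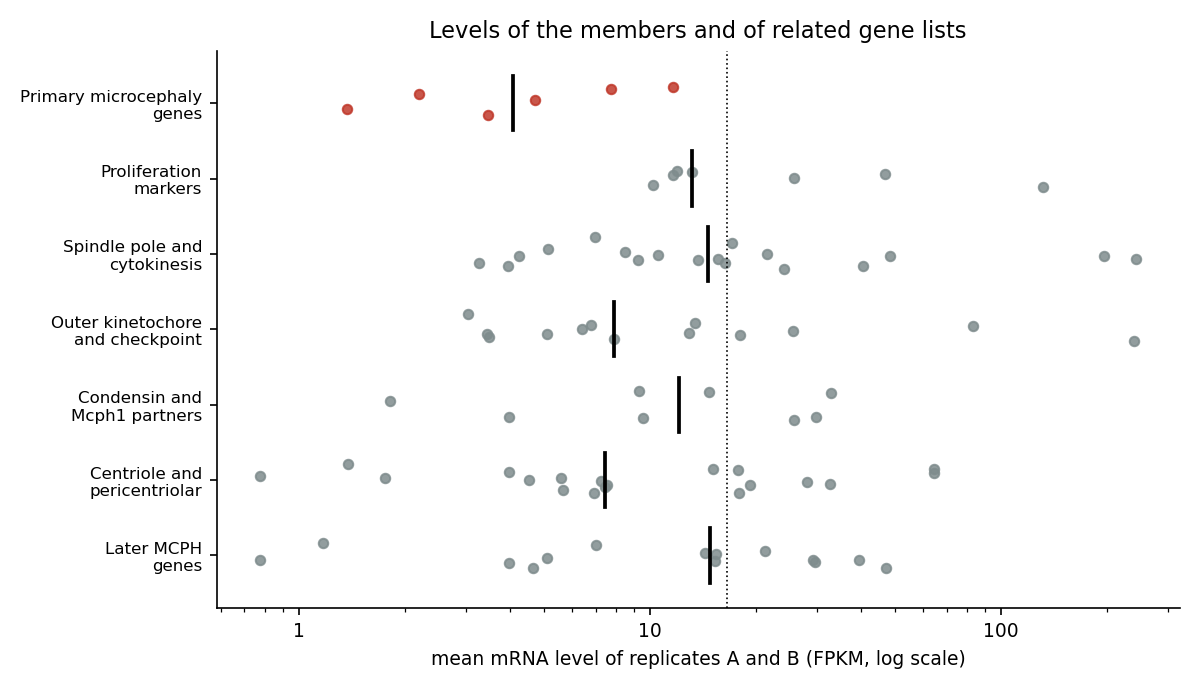
Mean mRNA level of replicates A and B in FPKM (log scale) for each analysed gene of the primary microcephaly list (red) and of 6 related lists (grey), with the list median as a black bar and the median of names averaging at least 1 FPKM (16.6 FPKM) as a dotted line. The primary microcephaly genes have a median of 4.08 FPKM and all lie below the dotted line.

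Next, the 2 biological replicates were compared. A name was counted as differing where its mean was at least 1 FPKM, A and B were at least 1 apart in log2(FPKM + 1), a scale that shrinks differences between low values, and their libraries did not overlap. None of the 6 genes was counted, while 6.2% of the 10481 names averaging at least 1 FPKM were, 1.42% as higher in A and 4.78% as higher in B. With a background of that size, 0 of 6 says little about these genes. Without the limit on size, both libraries of A were above both of B for 2 of the 6 genes, *Cenpj* and *Aspm*, and in 32% of the 10481 names. The opposite arrangement was found in none of the 6 and in 28.1% of names.

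*Aspm* differed by 0.35 on the log2(FPKM + 1) scale, with a mean of 5.40 FPKM in A and 4.02 FPKM in B, or 1.35-fold. *Cenpj* differed by 0.33, with 8.78 FPKM in A and 6.75 FPKM in B, or 1.30-fold. These were the genes higher in A. *Cit* had the largest difference, -0.62 with 2.51 FPKM in A and 4.401 FPKM in B, yet its libraries overlapped and the value rested on library B2. Without B2 the difference of *Cit* was -0.11 and that of *Aspm* was the largest at 0.59, and without B1 *Cit* was at 2.51 FPKM in A and 6.01 FPKM in B, just past the limit, and was counted as higher in B, where 8.46% of names were counted in either direction. *Wdr62* (-0.18), *Cdk5rap2* (-0.15) and *Knl1* (-0.12) had smaller differences of the same sign, and leaving out B1 or B2 turned the sign of each in one of the 2 cases. The median over the 6 genes was -0.14, beside 0.03 over the names averaging at least 1 FPKM. That sign rested on library B2, and without it the median was 0.15.

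Mesenchymal and meningeal markers separated the same replicates, as 7 of 8 were counted as higher in B. *Col1a2*, a fibrillar collagen gene, was at 141 FPKM in A and 717 FPKM in B, and *Foxc1*, a meningeal transcription factor, was at 14.1 FPKM in A and 72.4 FPKM in B, a mean carried by 115 FPKM in B2 against 29.4 FPKM in B1. Leaving out either library of B still gave 7 of 8. Their median difference was -2.04 on the log2(FPKM + 1) scale. In the other direction *Fabp7* was at 17678 FPKM in A and 6003 FPKM in B, the only one of 8 progenitor markers counted. Of 6 oligodendrocyte lineage markers 2 were counted, *Olig1* and *Pdgfra*, both as higher in B, with *Pdgfra* at 9.29 FPKM in A and 59.4 FPKM in B. The call of *Olig1* rested on B1, at 523 FPKM against 237 FPKM in B2, and was lost without B1, where A and B were at 183 and 237 FPKM. *Sox10* was at 0.371 FPKM in A and 0.146 FPKM in B. None of 7 neuron markers and none of 7 proliferation markers was counted, and the median difference of the proliferation markers was -0.58. Without B1, 1 of the 7 proliferation markers was counted, as higher in B. The part of these cell-type differences in the values of *Aspm*, *Cenpj* and *Cit* was not tested.

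**Figure D3:**
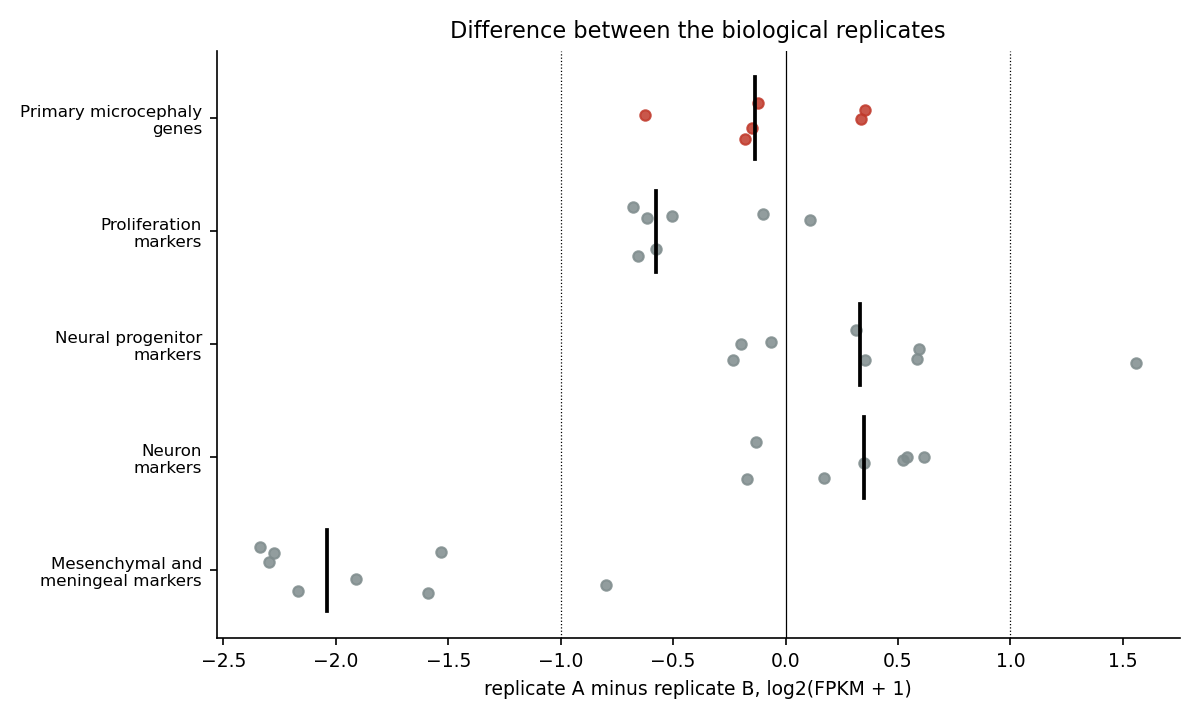
Difference of replicate A minus replicate B on the log2(FPKM + 1) scale for each gene of 5 lists, with the list median as a black bar and dotted lines at -1 and 1. The primary microcephaly genes (red) lie between -0.62 and 0.35, and the mesenchymal and meningeal markers have a median of -2.04.

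The spread between technical libraries of 1 replicate was as large as that between the replicates for some of the genes. A ratio of at least 1.5 was used to describe it, a limit chosen after the values were seen. In replicate B, 5 of the 6 genes were higher in B2 than in B1 by any margin, and so were 49.1% of the 10481 names. Of the 6, 3 were at least 1.5 times higher in B2 than in B1, compared with 11.4% of names. These were *Cit* (2.16-fold), *Wdr62* (2.14-fold) and *Knl1* (1.5-fold), and *Aspm* was just below the limit at 1.47-fold. The share over names was not matched for level. *Cit*, *Wdr62* and *Knl1* lay low among those names, at percentiles 3.61 to 15.6, and a share at their level was not computed. None of the 6 was at least 1.5 times higher in B1 than in B2, which was found in 6.24% of names. *Cenpj* stayed at 1.03-fold and *Cdk5rap2* went the other way at 0.738. The median ratio of B2 to B1 was 1.48 over the 6 genes and 0.994 over the names averaging at least 1 FPKM.

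In replicate A the technical libraries were closer. Only *Cit* was at least 1.5 times higher in A1 than in A2, by 1.61-fold, where 2.52% of names were. None of the 6 was at least 1.5 times higher in A2 than in A1, beside 0.296% of names. The median ratio of A2 to A1 was 0.931 over the 6 genes and 1.03 over names averaging at least 1 FPKM. *Cit* therefore passed the limit in both replicates, and its high library was A1 in one and B2 in the other.

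The ratio of B2 to B1 was also read in the other lists. Of 7 proliferation markers 6 were higher in B2, beside the 49.1% of names, and 3 of these by at least 1.5-fold. Their mean levels ran from 10.2 FPKM for *Ccnb1*, a mitotic cyclin, to 132 FPKM for *Pcna*, the replication clamp. *Mki67*, which encodes the Ki-67 antigen, was at 10.5 FPKM in A1 and 11.8 in A2, against 8.17 in B1 and 16.0 in B2. *Top2a*, the mitotic topoisomerase, was at 8.84 FPKM in A1 and 9.09 in A2, against 10.9 in B1 and 19.0 in B2. For both the highest library was B2, while *Mcm2*, a replication licensing gene, had a ratio of 0.9997. The median ratio of the list was 1.41. It was 1.37 over the 13 outer kinetochore and checkpoint genes, with 4 genes at 1.5-fold or more, and 1.28 over the 18 spindle pole and cytokinesis partners, with 5. The medians of the condensin and Mcph1 partners (1.004), the later MCPH genes (1.05) and the centriole and pericentriolar partners (0.946) were near that of all names. Of the 8, 14 and 19 analysed genes of these lists, 2, 0 and 2 were at 1.5-fold or more, beside 11.4% of names. Described by role, *Knl1*, *Wdr62*, *Aspm*, *Cit* and *Cenpj* had ratios above the median of their own partner lists, with *Cenpj* at 1.03 beside 0.946. *Cdk5rap2* alone was below the median of its list, at 0.738 beside 0.946. Markers of cell types moved between these libraries as well. Of 8 neural progenitor markers 3 were at least 1.5-fold higher in B2, namely *Nes* (1.97-fold), *Pax6* (1.69-fold) and *Vim* (1.68-fold), while *Sox2* (0.877), *Fabp7* (0.841) and *Hes1* (0.784) were lower there, all named after their values were seen. The median ratio of the 8 was 1.13. Of the 8 mesenchymal and meningeal markers 7 were higher in B2, with *Foxc1* at 3.93-fold, while the oligodendrocyte lineage markers averaging at least 1 FPKM had a median ratio of 0.696. B1 and B2 are libraries of 1 replicate, B2 was the shallower, and the part of depth and of these cell-type markers in the ratios was not tested.

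**Figure D4:**
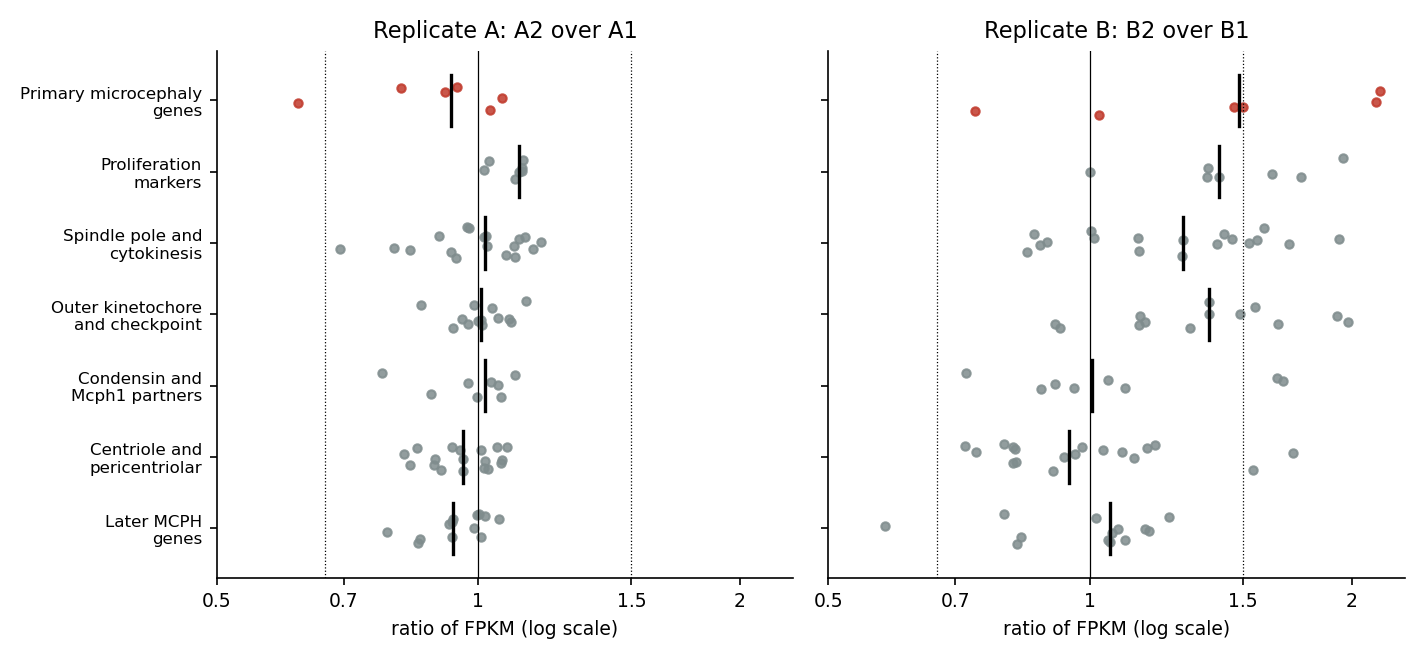
Ratio of FPKM between the technical libraries of replicate A (A2 over A1, left) and replicate B (B2 over B1, right) on a log scale, for each gene of 7 lists that averaged at least 1 FPKM, with the list median as a black bar and dotted lines at a 1.5-fold ratio in either direction. The median of the primary microcephaly genes (red) is 0.931 in A and 1.48 in B.

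The names most like *Cdk5rap2* in level were found by the Euclidean distance of log2(FPKM + 1) over the 4 libraries. They were *Pih1d1* (0.0588), *Sgsm3* (0.155) and *Nedd4l* (0.172). *Pih1d1* was at 11.1 FPKM in A1 and 10.8 in A2, against 14.5 in B1 and 10.8 in B2, with its high library in B1 as for *Cdk5rap2*. The 4 values come from 2 replicates, and many genes share such a level.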

How the data were processed

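PolyA-selected RNA of 2 biological replicates (A and B) of E14 rat cortical neural progenitors was sequenced as 2 technical libraries each, and samples were grouped by their labels. The authors aligned reads to rn6 with STAR, and the submitters' processing notes also name HISAT, StringTie and cutadapt, with no versions given in the sources used here. The tables have the layout of StringTie, while the authors' methods name Rsubread and DESeq2 for FPKM. FPKM and TPM are the values the authors deposited, and the deposited coverage signal is mean read depth, not scaled for library depth. Totals per library are not given in the sources used here.

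Rows sharing a gene name had their FPKM added, and technical libraries were averaged before the mean and SD (n = 2). Genes were compared between A and B on log2(FPKM + 1) for names averaging at least 1 FPKM. The counting was also run on simulated libraries, but the outcome is not given here and no conclusion is drawn from it. The genes and lists were chosen with earlier results of these data known. Genes named from a list were drawn from its highest and lowest gene and up to 3 differing between A and B. *Mki67*, *Top2a*, *Mcm2*, *Nes*, *Vim*, *Sox2* and *Hes1* were added after their values were seen. The 3 names nearest to *Cdk5rap2* were named too. The highest gene of 1 list is not reported here. Alternatives were TPM, a pseudocount of 0.1, other limits, rescaled libraries, and libraries or replicates left out. Gene positions are rn6, and promoters are RefSeq, GRCr8. Proteins and assembled transcripts were not analysed here. Python 3.11.15, pandas 2.3.3, numpy 2.4.6 and matplotlib 3.10.9 were used.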

Additional observations from a re-analysis of the deposited data

Results flagged for a closer look

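In the 4 RNA-seq libraries 39 values were examined. They were the 6 microcephaly genes, genes drawn from the lists and library depth, without *Nes*, *Vim*, *Sox2* and *Hes1*. Of the 39, 6 had 1 library far from the other 3 by Dixon's criterion, and none of these was a primary microcephaly gene. Chance gives about 1 in 20 among independent samples, and these libraries form technical pairs. Library B2 was the distant one in 4 cases. *Nsl1*, the Mis12 complex subunit that works beside Knl1, was at 4.73 FPKM in B2 against 2.39 to 2.54 FPKM in the others. *Foxc1* was at 115 FPKM in B2 against 14.1 to 29.4 FPKM, and endothelial *Cdh5* at 1.002 FPKM against 0.126 to 0.266 FPKM. Coverage per FPKM was 6.83 in B2 against 22.7 to 24.4. In B1, *Pax6* was at 22.1 FPKM against 37.01 to 39.3 FPKM, and microglial *Cx3cr1* was listed at 0.016 FPKM against 0 in the others.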

How the results depend on the processing

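Of 50 alternatives over 12 results, 42 stayed within the replicate spread or within 1.5 times the count, and 8 moved. Some of the 42 could not have moved. Leaving out 1 of the 2 replicates shifts the mean level of a gene by less than its SD. Dropping the limit on the mean could not change the count, as all 6 genes averaged at least 1 FPKM. The tally of 42 is therefore not a measure of how stable the results are. No gene of the 6 was counted as differing between A and B under the 7 alternatives set at first, but *Cit* was without library B1, a count of 1 under an alternative chosen after seeing the data. The share of all names counted ran from 3.81% to 16.5% over these 8, and with the 10 FPKM limit *Cdk5rap2* alone could be counted. Without library B2 the median level was 3.49 FPKM in place of 4.08, the median A minus B changed sign from -0.14 to 0.15, and the span between highest and lowest gene was 10.3-fold in place of 8.50. With *Knl1* left out, as it was read under an older symbol, the median level was 4.71 FPKM and the median percentile 52.4. Among names averaging at least 1 FPKM the median percentile was 18.4 in place of 50.7. Leaving out replicate A or B gave a median percentile of 50.6 to 51.2. The cause was not tested. The count of genes at least 1.5 times higher in B2 than in B1 was 3, and it was 3 with TPM (13.2% of names), 4 with rescaled libraries (12.3%), 4 at a looser limit (21.8%) and 2 at a limit of 2 (3.95%), all chosen after seeing the data, as was leaving B1 or B2 out of the marker counts. No paired analysis was possible because there is 1 condition and no result comes from a test. B2 was the shallowest library, and every SD rests on n = 2.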
